A study of Mus musculus with 9 samples.

Results

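This account follows 9 genes of complement and of blood clotting control at the vessel wall in the hearts of mice: C1ra, C3, C4b, Serping1, Thbd, F3, Procr, Tfpi and Vwf. They were chosen by name, as complement factors that tissues make locally and as genes through which endothelium controls coagulation, and they are 9 of the 21989 gene symbols in the deposited table. RNA sequencing of whole heart tissue gave 9 libraries from male C57BL/6J mice, 18 to 20 weeks old. The 3 sham mice had a sham operation and distilled water. The 3 TAC mice had distilled water after TAC, which commonly stands for transverse aortic constriction, a banding of the aorta that puts the left ventricle under a pressure load. The 3 LD mice had TAC and Lingguizhugan decoction, a Chinese herbal preparation that the study, by its title, examines in heart failure. Neither the dose, nor the length of treatment, nor the time since the operation is given in the sources used here.

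Complement is a set of proteins that tags and lyses targets. C1r, made in mice from C1ra, is the protease of the first complex of the classical pathway, C4 and C3 are cleaved in turn, and the C1 inhibitor encoded by Serping1 blocks C1r and C1s. Clotting in tissue starts when tissue factor, encoded by F3, binds factor VII, and tissue factor pathway inhibitor, encoded by Tfpi, shuts that complex off. Thrombomodulin (Thbd) and the endothelial protein C receptor (Procr) together let thrombin activate the anticoagulant protein C, while von Willebrand factor (Vwf), stored in endothelium and platelets, tethers platelets to the wall. In the heart, fibroblasts and macrophages are known sources of complement factors, and the endothelium of vessels and endocardium of most of the clotting control genes.

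Levels are FPKM, fragments scaled by gene length in kilobases and by the library total. A log2 difference is between group means of log2(FPKM + 1) and stands with its standard error from limma, a linear model fitted over all genes. An SD is over the 3 mice of a group. Groups are said not to overlap when every library of 1 group lies above every library of the other. Of the 9 genes, 8 were among the 11380 tested (FPKM of at least 1 in at least 3 libraries), and C4b was below that level. No gene of any kind passed an adjusted p of 0.05 in the 3 comparisons, so none of the 9 is called higher or lower, and unadjusted p-values are given as descriptions. LD against TAC and TAC against sham use the same TAC libraries, and LD against sham shares libraries with both.

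The library totals recovered from the FPKM values ran from 7.43 to 18.1 M (mega) fragments. On the first principal component of all tested genes, which held 29.4% of the variance, TAC 3 lay at -51.0 and LD 3 at 48.3, with the other 7 libraries between -10.4 and 17.1. Values without both are given beside the results that they move. Summed cardiomyocyte markers stood at 38280 to 62930 FPKM, the largest sum of the 12 marker lists in every library, as the heart label implies. The 12 endothelial markers summed to 1094 to 1327 FPKM in sham, 1076 to 1345 in TAC and 912 to 1223 in LD, and Cldn5 was low among them (0.380 to 1.91). The 10 fibroblast markers summed to 1019 to 1214 in sham, 1583 to 2532 in TAC and 1156 to 1754 in LD. In whole tissue, fewer cells of a type and less RNA per cell cannot be told apart.

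By mean level over all 9 libraries, Serping1 came first at 72.2 FPKM, and its lowest library (42.5) lay above the highest of C3 (36.3). C3 followed at 25.4 and Thbd at 18.9, with ranges that overlapped. Tfpi (12.97), Vwf (12.8) and C1ra (10.6) could not be ordered, since each range covered most of the others. F3 stood at 6.87, Procr at 2.03 and C4b at 0.351 FPKM. Within a gene, the highest library exceeded the lowest 2.13-fold for Tfpi, 3.53-fold for Thbd and 16.1-fold for Procr. These levels rest on the gene lengths the authors used, which for Vwf came out at 9076 bases against 16064 bases of annotated exons.

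**Figure D1:**
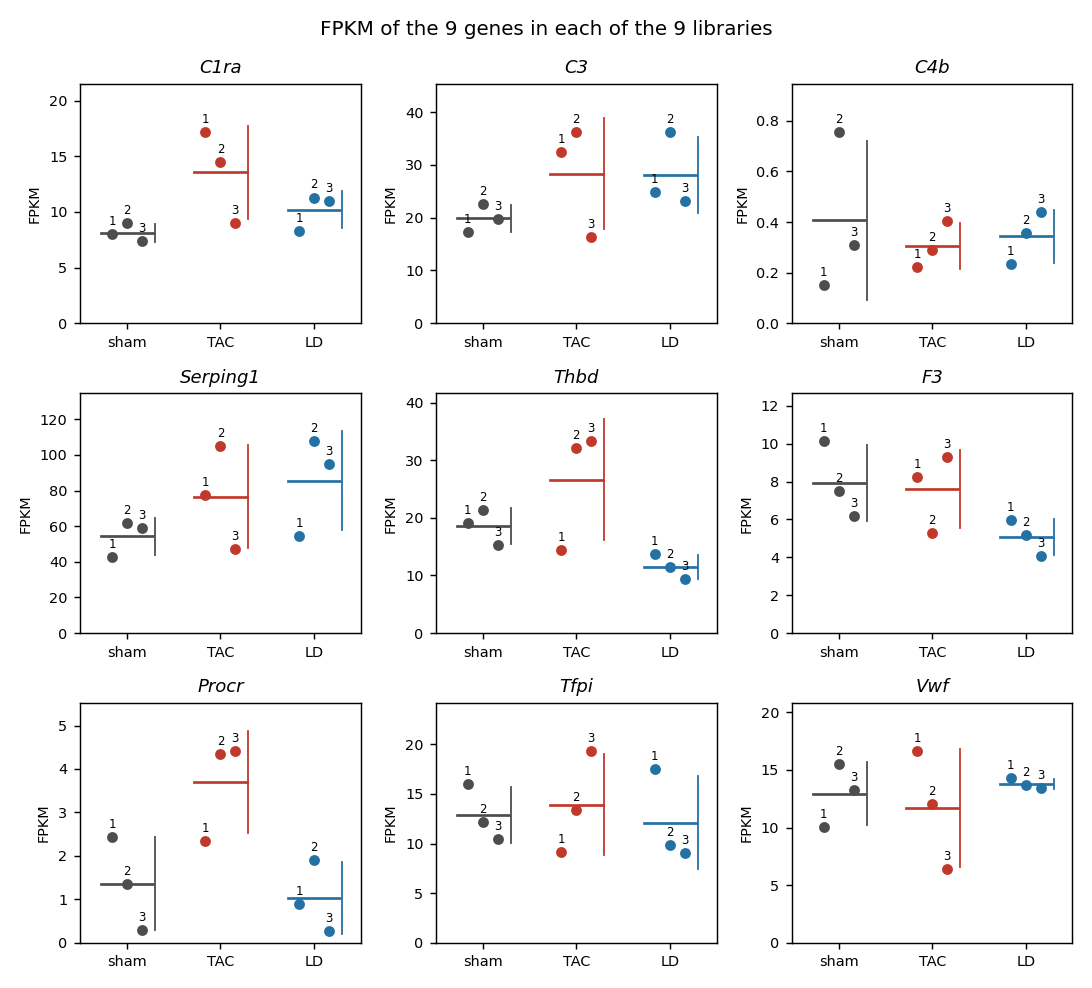
FPKM (vertical axes, from 0) of each gene in the sham, TAC and LD libraries, with the replicate number above each point, a horizontal line at the group mean and a vertical line of 1 SD either way, cut at 0. Thbd and Procr are highest in TAC 2 and TAC 3 and lie lower in all LD libraries than in any TAC library, while Vwf varies least in LD (13.4 to 14.3).

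The 3 comparisons ask about the operation (TAC against sham), about the decoction given after it (LD against TAC) and about operated, treated hearts beside sham hearts (LD against sham). In TAC against sham, 6 of the 8 tested genes had log2 differences above 0, as did 50% of all genes, and their median was 0.42, where that of all genes was 0.00. C1ra and Procr, but none in the lower direction, had an unadjusted p under 0.05 (2.85% of all genes higher, 2.58% lower). C1ra alone had groups without overlap (5.22% of all genes higher, 4.62% lower). In LD against TAC, 3 of the 8 were above 0 (39.6% of all genes), with a median of -0.27 against -0.10. Thbd and Procr had an unadjusted p under 0.05 in the lower direction (6.31% of all genes, 2.51% higher) and groups without overlap (8.14% lower, 3.73% higher). In LD against sham, 4 of the 8 were above 0 (37.2% of all genes), with a median of -0.01 against -0.11. None had an unadjusted p under 0.05 (1.52% of all genes higher, 3.59% lower). C3 was higher without overlap (4.47% of all genes), and Thbd and F3 were lower without overlap (8.76%). No adjusted call was made in any comparison (0% of genes). Without TAC 3 and LD 3, 4 of the 8 had an unadjusted p under 0.05 in TAC against sham (7.78% of all genes in either direction), 1 in LD against TAC (4.43%) and 1 in LD against sham (4.7%).

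Asked whether any of the 3 groups differed, limma's moderated F test gave Thbd an unadjusted p of 0.0130 (rank 195 of 11380 genes) and Procr 0.0169 (rank 261), where 6.76% of all genes were under 0.05. Their adjusted p-values were 0.723 and 0.728. The other 6 had unadjusted p-values from 0.101 (C1ra) to 0.844 (Tfpi).

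The classical pathway protease gene C1ra (chromosome 6, 124512405 to 124523443, plus strand, GRCm38) stood at 8.03, 8.97 and 7.37 FPKM in sham 1 to 3, at 17.2, 14.5 and 9.01 in TAC 1 to 3, and at 8.29, 11.3 and 11 in LD 1 to 3. TAC 1 and TAC 2 were the highest libraries, TAC 3 only just exceeded sham 2, LD 2 and LD 3 lay between TAC 3 and TAC 2, and LD 1 lay within the sham range. The means were 8.13 ± 0.807 (SD), 13.6 ± 4.19 and 10.2 ± 1.66 FPKM. TAC against sham gave a log2 difference of 0.64 ± 0.27 without overlap (unadjusted p = 0.0357, adjusted p = 0.903 by limma). It was 0.89 without TAC 3 and LD 3, and 0.45 without TAC 1. LD against TAC gave -0.35 ± 0.27 with overlap (adjusted p = 0.682), and -0.65 without TAC 3 and LD 3 (unadjusted p = 0.0336). Of the 100-base stretches of the C1ra transcript, 35.95% also occur in its near copy C1rb or the predicted gene Gm18840, so some fragments could belong to either. C1rb was listed between 0 and 0.102 FPKM.

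C1s1, the partner protease in the same complex, did not follow C1ra: its means were 16.6, 15.2 and 13.9 FPKM in sham, TAC and LD. The ratio of C1ra to C1s1 was 0.549, 0.490 and 0.440 in sham, 1.27, 1.18 and 0.457 in TAC, and 0.540, 0.703 and 1.06 in LD. It was above 1 in TAC 1, TAC 2 and LD 3. The recognition subunits C1qa, C1qb and C1qc, which macrophages make, differed between TAC and sham by 0.06, 0.26 and 0.33, with overlapping groups.

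C4b, the gene of complement component 4 that C1s cleaves (chromosome 17, 34728380 to 34743882, minus strand), was low in every library. It stood at 0.151, 0.758 and 0.310 FPKM in sham, 0.223, 0.288 and 0.402 in TAC, and 0.234, 0.356 and 0.441 in LD, from 38 to 241 fragments. Sham 2 was the highest, and the 3 groups overlapped. The length behind these values came out as 21901 bases, 3.85 times the annotated 5695 bases of exon, and longer than the 15503 bases the gene spans. At the annotated length the same fragments give 0.582 to 2.91 FPKM, with 6 libraries at 1 or more. In a fit without the filter, the log2 differences were -0.09 for TAC against sham, 0.04 for LD against TAC and -0.05 for LD against sham, each with a standard error of 0.16. Its near copy C4a shares 16.5% of the 100-base stretches and was listed at 0 to 0.0188 FPKM.

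C3, the central component on which all complement pathways meet (chromosome 17, 57203970 to 57228136, minus strand), stood at 17.3, 22.6 and 19.7 FPKM in sham, 32.4, 36.2 and 16.4 in TAC, and 24.8, 36.3 and 23.1 in LD. TAC 1, TAC 2 and LD 2 were high and TAC 3 was the lowest of all 9. The means were 19.9 ± 2.62 (SD), 28.3 ± 10.5 and 28.1 ± 7.20. TAC against sham gave 0.42 ± 0.30 with overlap (unadjusted p = 0.182), and 0.76 without TAC 3 and LD 3 (unadjusted p = 0.00933). Without TAC 2 this difference was 0.21. LD against sham gave 0.46 ± 0.30 without overlap, LD 3 lying just above sham 2 (adjusted p = 0.875). LD against TAC gave 0.03 ± 0.30, with a 95% interval from -0.61 to 0.68. The hepatocyte markers, of interest because liver makes most plasma C3, summed to 9.37 to 13.2 FPKM in sham, 4.39 to 20.1 in TAC and 12.4 to 16.8 in LD, highest in TAC 1 and lowest in TAC 3. Their part in the C3 values was not tested.

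The stretch before the start of C3 is shown because it holds a match to the letters bound by C/EBP factors, which are known to drive C3 in the acute phase response. It is RefSeq sequence (GRCm38.p6, chr17:57228137-57228386, minus strand), and the capitals mark that match, 45 to 38 bases before the start.
C3: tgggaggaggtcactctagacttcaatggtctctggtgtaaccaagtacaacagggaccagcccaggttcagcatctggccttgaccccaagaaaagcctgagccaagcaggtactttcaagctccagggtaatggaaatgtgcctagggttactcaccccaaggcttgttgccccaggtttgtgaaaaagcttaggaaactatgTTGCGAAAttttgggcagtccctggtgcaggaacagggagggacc
The letters TTGCNNAA, on either strand, occur in 9.56% of 32851 windows of 250 bases before RefSeq starts. Cebpb and Cebpd, which encode such factors, are among the upstream genes counted below.

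Serping1, the gene of the C1 inhibitor (chromosome 2, 84765387 to 84775444, minus strand), stood at 42.5, 61.7 and 59.0 FPKM in sham, 77.7, 105 and 47.1 in TAC, and 54.3, 108 and 94.9 in LD. TAC 2, LD 2 and LD 3 were highest, and TAC 3 and LD 1 lay within the sham range. The means were 54.4 ± 10.4 (SD), 76.6 ± 29.0 and 85.6 ± 27.8. TAC against sham gave 0.43 ± 0.32 (unadjusted p = 0.203), LD against TAC 0.17 ± 0.32 and LD against sham 0.60 ± 0.32 (unadjusted p = 0.0819, adjusted p = 0.875). The ratio of C1ra to its inhibitor Serping1 was 0.125 to 0.189 in sham, 0.138 to 0.222 in TAC and 0.105 to 0.153 in LD.

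C1ra, C3 and Serping1 had their largest sham to TAC differences when TAC 3 was left out (0.89, 0.76 and 0.74). Their smallest were 0.45 for C1ra without TAC 1, and 0.21 for C3 and 0.17 for Serping1 without TAC 2. The fibroblast marker sum, to which Gsn and Dcn gave most, was above every sham library in all 3 TAC libraries. By the mean of the 10 log2 values relative to sham, TAC 2 (1.07) and TAC 3 (1.13) lay above every sham library and TAC 1 (0.176) lay below sham 1 (0.266). Within the fibroblast list, 10 of 10 markers had log2 differences above 0 in TAC against sham (50% of all genes). Of these, 6 had an unadjusted p under 0.05 (2.85% of all genes in the higher direction). Gsn, which encodes gelsolin and is on that list, was the gene whose pattern over the 9 libraries was most like that of Serping1 (Pearson's r = 0.979 among 6997 genes). In LD against TAC, however, Gsn (0.05) was the 1 marker of that list above 0, with 9 below 0 and a list median of -0.70. Its likeness to Serping1 is therefore not that of the list. Whether fibroblast content has a part in these values was not tested.

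F3, the tissue factor gene (chromosome 3, 121723537 to 121735048, plus strand), stood at 10.1, 7.52 and 6.16 FPKM in sham, 8.25, 5.30 and 9.28 in TAC, and 5.96, 5.19 and 4.05 in LD. Every LD library lay below every sham library, and LD 1 lay above TAC 2. The means were 7.94 ± 2.01 (SD), 7.61 ± 2.06 and 5.07 ± 0.959. LD against sham gave -0.55 ± 0.29 (unadjusted p = 0.0763, adjusted p = 0.875), LD against TAC -0.49 ± 0.29 (unadjusted p = 0.110) and TAC against sham -0.06 ± 0.29. LD against TAC was -0.22 when TAC 3 and LD 3 were left out.

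F7, which encodes the protease that tissue factor binds, was measured at 0.563, 0.376 and 1.40 FPKM in sham, 2.08, 2.01 and 3.82 in TAC, and 0.638, 1.05 and 0.227 in LD. All 3 TAC libraries lay above the other 6. The log2 differences were 1.04 ± 0.34 for TAC against sham (unadjusted p = 0.00902, adjusted p = 0.772) and -1.15 ± 0.34 for LD against TAC (unadjusted p = 0.00484, adjusted p = 0.520). These were 0.82 (unadjusted p = 0.0296) and -0.73 (unadjusted p = 0.0663) without TAC 3 and LD 3.

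Tfpi, whose product inhibits the complex of tissue factor and factor VIIa (chromosome 2, 84432855 to 84476775, minus strand), stood at 16.0, 12.2 and 10.5 FPKM in sham, 9.11, 13.4 and 19.3 in TAC, and 17.5, 9.81 and 9.04 in LD. TAC 3 and LD 1 were the highest, and the 3 groups covered nearly the same range. The log2 differences were 0.07, -0.18 and -0.12 for TAC against sham, LD against TAC and LD against sham, each with a standard error of 0.32. The 95% intervals ran from -0.62 to 0.75, from -0.87 to 0.50 and from -0.80 to 0.57. The ratio of F3 to Tfpi was 0.588 to 0.633 in sham, 0.340 to 0.529 in LD and 0.397 to 0.905 in TAC, so that the LD libraries lay below the sham libraries and the TAC libraries on both sides of them.

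Thbd, the single-exon gene of thrombomodulin (chromosome 2, 148404466 to 148408188, minus strand), stood at 19.1, 21.4 and 15.2 FPKM in sham, 14.5, 32.1 and 33.3 in TAC, and 13.7, 11.4 and 9.45 in LD. TAC 2 and TAC 3 were far above the rest, TAC 1 was below sham, and the LD libraries were the lowest of all 9. The means were 18.6 ± 3.10 (SD), 26.6 ± 10.5 and 11.5 ± 2.103. LD against TAC gave -1.07 ± 0.31 on the log2 scale, with a 95% interval from -1.74 to -0.41 (unadjusted p = 0.00396, adjusted p = 0.520), and the LD mean was 0.431 times the TAC mean. LD against sham gave -0.65 ± 0.31 without overlap (unadjusted p = 0.0557, adjusted p = 0.875), and TAC against sham 0.42 ± 0.31 with overlap. Without TAC 3 and LD 3, the LD to TAC difference was -0.75 (unadjusted p = 0.0506), and without TAC 1 it was -1.45. Over the 22 alternatives the adjusted p ran from 0.116 to 0.9995.

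Procr, the gene of the receptor that presents protein C to thrombomodulin (chromosome 2, 155751117 to 155755471, plus strand), was a low gene with 8 to 118 fragments. It stood at 2.42, 1.36 and 0.295 FPKM in sham, 2.35, 4.35 and 4.41 in TAC, and 0.887, 1.91 and 0.273 in LD. TAC 2 and TAC 3 were again the highest, sham 1 and TAC 1 were nearly equal, and all LD libraries lay below all TAC libraries. The means were 1.36 ± 1.06 (SD), 3.70 ± 1.17 and 1.02 ± 0.828. TAC against sham gave 1.07 ± 0.41 (unadjusted p = 0.0202, adjusted p = 0.827), and the mean was 2.72 times that of sham. LD against TAC gave -1.26 ± 0.41 (unadjusted p = 0.00798, adjusted p = 0.537), and the mean was 0.277 times that of TAC. Without TAC 3 and LD 3, these differences were 0.95 and -0.85 (unadjusted p = 0.0401 and 0.0846). Without sham 3, which had 8 fragments, TAC against sham was 0.69 (unadjusted p = 0.119).

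**Figure D2:**
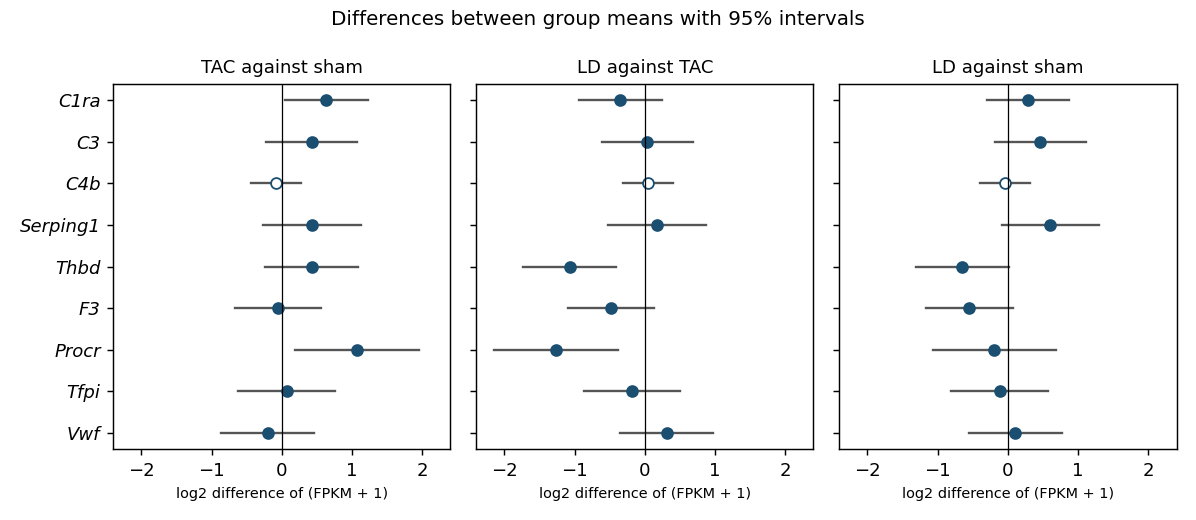
Log2 differences of (FPKM + 1) between group means (points) with 95% intervals from limma (lines) for each gene in the 3 comparisons, the open point marking C4b, which comes from the fit without a filter. The intervals of Thbd and Procr in LD against TAC, and of C1ra and Procr in TAC against sham, lie on 1 side of 0.

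Protein S, the cofactor of activated protein C encoded by Pros1, stood at 14.8, 13.2 and 8.08 FPKM in sham, 13.2, 19.3 and 21.3 in TAC, and 12.0, 8.75 and 5.71 in LD. As with Thbd and Procr, TAC 2 and TAC 3 were the highest and the LD libraries lay below all TAC libraries. LD against TAC gave -0.97 ± 0.31 (unadjusted p = 0.00805, adjusted p = 0.537), and -0.59 without TAC 3 and LD 3 (unadjusted p = 0.0983). Relative to the mean of the endothelial markers in the same library (log2 values, with no test), LD against TAC was -0.88 for Thbd and -1.07 for Procr, so the differences were smaller but in the same direction. The same relative value was 0.01 for Tfpi, -0.30 for F3 and 0.50 for Vwf. Of the 11 tested endothelial markers, 8 were below 0 in LD against TAC, with a median of -0.18. Of the 10 fibroblast markers 9 were, with a median of -0.70. Over all genes 60.4% were below 0, with a median of -0.10. No marker of either list was at 0 in all libraries, and the part of either cell type in the Thbd and Procr values was not tested. Snai2, a transcription factor gene of mesenchymal cells, was the second most alike in pattern to Procr (r = 0.953), after Slc44a1 (r = 0.969), and Serbp1 was most like Thbd (r = 0.971).

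The windows before F3 and Procr are shown because both hold matches to the AP-1 letters TGANTCA, bound by Fos and Jun proteins, and to the letters CCACCC, bound by factors of the KLF family. Both are RefSeq sequence (GRCm38.p6). The F3 window is chr3:121723287-121723536, plus strand. That of Procr is chr2:155750967-155751116, plus strand, and ends where the annotated gene begins.
F3: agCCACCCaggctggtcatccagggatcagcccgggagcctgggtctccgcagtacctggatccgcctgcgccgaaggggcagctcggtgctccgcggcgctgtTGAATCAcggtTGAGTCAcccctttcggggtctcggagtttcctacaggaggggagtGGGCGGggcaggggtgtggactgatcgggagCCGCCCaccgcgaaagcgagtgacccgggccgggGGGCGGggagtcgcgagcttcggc
Procr: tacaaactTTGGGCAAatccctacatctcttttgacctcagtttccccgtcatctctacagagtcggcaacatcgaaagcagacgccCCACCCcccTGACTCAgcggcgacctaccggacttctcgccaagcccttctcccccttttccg
Capitals mark the matches. In F3 they are the KLF letters at bases 248 to 243 before the RefSeq start, AP-1 letters at 146 to 140 and at 135 to 129, and 3 GC boxes (GGGCGG, read on either strand) at 89 to 84, 58 to 53 and 24 to 19. In Procr, whose RefSeq start lies 100 bases past the end of the printed stretch, they are the C/EBP letters at 242 to 235, the KLF letters at 163 to 158 and AP-1 letters at 154 to 148. Of the 32851 windows of 250 bases, 6.75% hold AP-1 letters, 28.1% the KLF letters and 32.7% a GC box. Of the 9 genes, 5 had such a window, and the other motifs searched, all on both strands, were those of STAT (TTCNNNGAA), ETS (CCGGAA), the TATA box (TATAAA), the CCAAT box and NF-kappaB. No printed match overlaps another.

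Of the upstream genes, values are given here for Fos, Jun, Egr1, Klf2 and Klf4. No letters bound by Egr1 were among the motifs searched. Fos stood at 9.79, 6.84 and 5.97 FPKM in sham, 1.14, 2.44 and 2.45 in TAC, and 7.65, 4.26 and 7.23 in LD, the TAC libraries lying below all others. LD against TAC gave 1.29 ± 0.31 (unadjusted p = 0.00103, adjusted p = 0.378). Egr1, another immediate early gene, gave -1.37 ± 0.38 for TAC against sham and 1.24 ± 0.38 for LD against TAC, also without overlap. Jun gave -0.56 and 0.22 in the same comparisons. F3, with 2 AP-1 matches, gave -0.06 and -0.49, and Procr, with 1, gave 1.07 and -1.26. The part of these factors in the F3 and Procr values was not tested.

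Klf2 and Klf4 encode factors known to raise Thbd in endothelium under flow. Klf2 stood at 144, 99.8 and 158 FPKM in sham, 82.2, 90.6 and 61.3 in TAC, and 121, 63.4 and 97.1 in LD. All TAC libraries lay below all sham libraries (log2 -0.77 ± 0.28, unadjusted p = 0.0159, adjusted p = 0.791). In LD against TAC, Klf2 was at 0.23 ± 0.28 with overlap. Klf4 stood at 71.4, 67.8 and 80.2 in sham, 49.5, 55.6 and 68.8 in TAC, and 46.0, 26.2 and 28.4 in LD. Its LD libraries lay below those of both other groups (-0.80 ± 0.25 against TAC, unadjusted p = 0.00654, and -1.14 ± 0.25 against sham, unadjusted p = 0.000471, adjusted p = 0.383). When TAC 3 and LD 3 were left out, Klf2 in TAC against sham was -0.60 (unadjusted p = 0.0605) and Klf4 in LD against TAC -0.58 (unadjusted p = 0.0615). The ratio of Thbd to Klf4 was 0.190 to 0.315 in sham, 0.293 to 0.578 in TAC and 0.297 to 0.436 in LD. The part of either factor in the Thbd values was not tested. Over the list of 12 tested upstream factors, 5 differences were above 0 in TAC against sham and 6 in LD against TAC, with medians of -0.25 and -0.01.

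Vwf, the gene of von Willebrand factor (chromosome 6, 125546774 to 125686679, plus strand), stood at 10.0, 15.5 and 13.2 FPKM in sham, 16.6, 12.1 and 6.40 in TAC, and 14.3, 13.7 and 13.4 in LD. TAC held both the highest and the lowest library, and the LD libraries differed by a coefficient of variation of 3.24% against 43.8% in TAC. The means were 12.9 ± 2.75 (SD), 11.7 ± 5.12 and 13.8 ± 0.447, and the log2 differences were -0.20 ± 0.31 for TAC against sham, 0.31 ± 0.31 for LD against TAC and 0.11 ± 0.31 for LD against sham. TAC 3, the lowest for Vwf, was the highest for Thbd, Procr and Tfpi, so that the ratio of Thbd to Vwf reached 5.20 there, against 0.704 to 2.66 in the other 8 libraries. The platelet and megakaryocyte markers, the other source of Vwf, summed to 2.87 to 8.49 FPKM in sham, 2.48 to 5.00 in TAC and 2.70 to 7.53 in LD.

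Scaling the columns by the median of ratios moved the median of all genes from -0.10 to 0.01 in LD against TAC and from -0.11 to -0.01 in LD against sham, a shift of over 0.1. On that scale Thbd was at -0.94 and Procr at -1.19 in LD against TAC, and C3, Serping1, Thbd and F3 were at 0.58, 0.73, -0.53 and -0.44 in LD against sham. These 6 differences kept their directions.

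**Figure D3:**
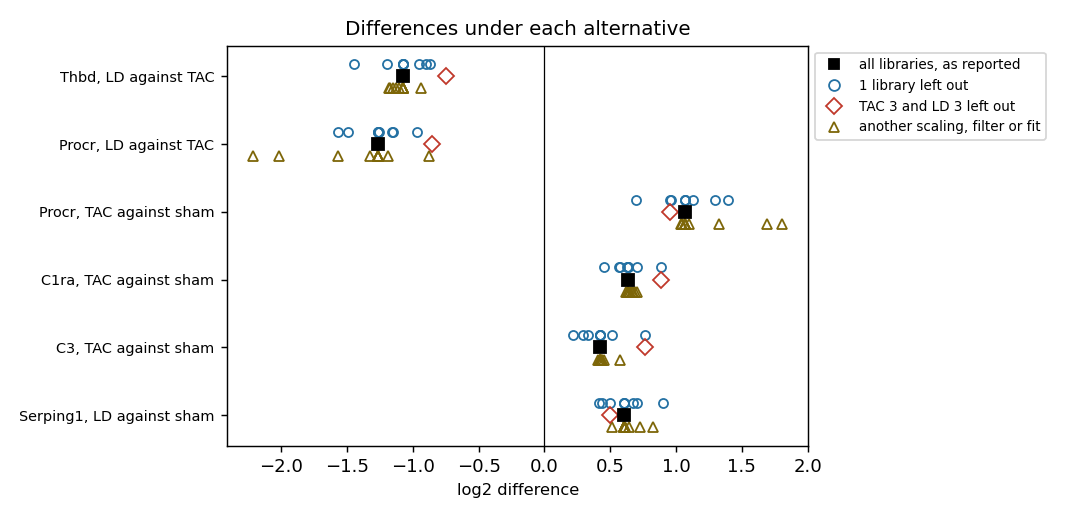
Log2 differences of 6 comparisons as reported (black squares), with 1 library left out (circles), without TAC 3 and LD 3 (diamonds) and under other scalings, filters and fits (triangles). All values of Thbd (-1.45 to -0.75) and Procr (-2.21 to -0.85) in LD against TAC lie below 0.

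The other genes of complement, coagulation, anticoagulation, fibrinolysis and platelet adhesion were taken from lists of 102 further genes, of which 12 were at 0 in all libraries and 50 could be tested. In TAC against sham, 35 of the 50 differences (70%) were above 0, against 50% of all genes, with a median of 0.32. An unadjusted p under 0.05 was found for 6 in the higher direction and 2 in the lower (2.85% and 2.58% of all genes), and 0 passed adjustment by limma. In LD against TAC, 36 (72%) were below 0, against 60.4% of all genes, with a median of -0.17 where that of all genes was -0.10. There, 9 had an unadjusted p under 0.05 in the lower direction (6.31% of all genes) and 0 in the higher (2.51%). In LD against sham, 23 were above and 27 (54%) below 0, against 62.8% of all genes. Without TAC 3 and LD 3, the count with an unadjusted p under 0.05 in TAC against sham was 8 higher and 0 lower. Over all 11380 genes in that setting it was 395 higher and 490 lower. In LD against TAC without those libraries it was 3 lower, beside 268 lower over all genes. Under median-of-ratios scaling, 29 of 48 (60.4%) were below 0 in LD against TAC, against 49% of all genes, and the median of LD against sham changed sign, from -0.03 to 0.08.

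Among complement regulators, Cd59a, which blocks the membrane attack complex, was 104, 87.3 and 44.2 FPKM in LD against 117 to 121 in TAC (-0.67 ± 0.28, unadjusted p = 0.0302, without overlap), with LD 3 the lowest. It was -0.29 without TAC 3 and LD 3 (unadjusted p = 0.214). Of the 8 tested regulators, 6 were above 0 in TAC against sham (50% of all genes) and 6 below 0 in LD against TAC (60.4% of all genes). Under median-of-ratios scaling, with 7 tested, 3 were below 0 and 4 above in LD against TAC.

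The receptors for complement fragments, several of them found on myeloid cells, had a list median of -0.75 in LD against TAC, where that of all genes was -0.10. Of 7 tested genes, 6 were below 0 (60.4% of all genes). An unadjusted p under 0.05 in the lower direction was found for 4 (6.31% of all genes). Under median-of-ratios scaling, 5 of 6 tested were below 0 (49% of all genes), with a list median of -0.45. On that scale 3 had an unadjusted p under 0.05 in the lower direction, beside 456 of 11342 genes. The C5a receptor gene C5ar1 was at 3.58 FPKM in TAC and 1.67 in LD (-0.78 ± 0.30), and the integrin chains Itgb2 and Itgam were at -0.77 ± 0.31 and -1.04 ± 0.45. These are low levels, and Itgam, at 0.813, 3.29 and 4.86 FPKM in TAC and 0.776, 1.75 and 0.0665 in LD, overlapped between the groups. Without TAC 3 and LD 3 the list median was -0.34, and 4 of the 7 were below 0 (51.3% of all genes). Of the 7, 1 had an unadjusted p under 0.05 (4.43% of all genes in either direction). C5ar1 was at -0.53, Itgb2 at -0.72 and Itgam at -0.34 without those libraries. The C3a receptor gene C3ar1 was at 1.31, 1.15 and 1.06 in sham and 0.997, 3.57 and 5.61 in TAC, and at 2.004, 2.09 and 2.23 in LD. TAC 2 and TAC 3 were the highest, TAC 1 was the lowest, and all LD libraries lay above all sham libraries. The 8 macrophage markers summed to 124 to 187 FPKM in sham, 160 to 221 in TAC and 143 to 220 in LD. Of these 8 markers, 6 were below 0 in LD against TAC (60.4% of all genes). Their part in the receptor values was not tested. Cfp, the gene of properdin, which stabilises the C3 convertase, stood at 22.6, 15.3 and 9.10 FPKM in sham, TAC and LD, and LD against sham gave -1.25 ± 0.36 without overlap (unadjusted p = 0.00410, adjusted p = 0.775). Factor B (Cfb) and C2, which carry the protease of the convertases, were listed at or below 0.127 FPKM in every library.

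In fibrinolysis, S100a10 and Anxa2, which together form a plasminogen receptor on endothelium, were at 0.60 ± 0.25 and 0.62 ± 0.23 in TAC against sham and at -0.87 ± 0.25 and -0.52 ± 0.23 in LD against TAC, without overlap in either. Plat, the tissue plasminogen activator gene, was at 10.2, 14.5 and 9.80 FPKM.

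Over the 11 tested anticoagulant genes of the vessel wall, 9 were above 0 in TAC against sham (median 0.42, 50% of all genes above 0) and 9 below 0 in LD against TAC (median -0.19, 60.4% of all genes below 0). The 3 with an unadjusted p under 0.05 in the latter were Thbd, Procr and Pros1. Leaving out TAC 3 and LD 3 gave 7 below 0 (51.3% of all genes) and 0 with an unadjusted p under 0.05 (4.43% of all genes). The 6 erythroid markers, a sign of blood in the tissue, summed to 516 to 3343 FPKM in sham, 2238 to 11050 in TAC and 1205 to 2274 in LD. Only TAC 2 (11050) lay above the sham range, with TAC 1 (2629) and TAC 3 (2238) within it. All 5 tested erythroid markers were above 0 in TAC against sham (median 1.39) and below 0 in LD against TAC (median -1.37), and their part in these values was not tested. Entpd1, which removes ADP and ATP and so restrains platelets, was at 3.42 to 5.55 FPKM in sham and 6.11 to 7.37 in TAC, without overlap. Ptgis, the prostacyclin synthase gene, was higher in LD than in sham without overlap (25.5, 20.95 and 22.8 against 10.3, 17.4 and 13.7 FPKM, 0.73 ± 0.30, adjusted p = 0.875).

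**Figure D4:**
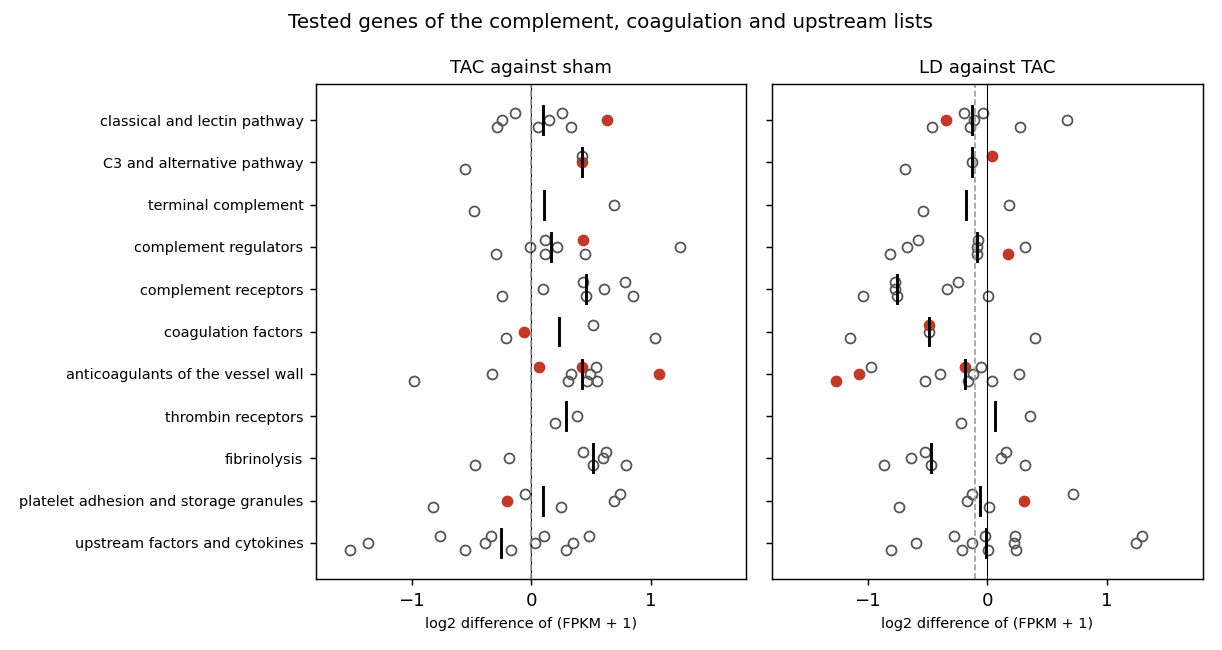
Log2 differences of (FPKM + 1) of each tested gene (circles) by list, with the 8 tested genes described here filled red, the list median as a vertical bar and the median of all genes as a dashed line. Of the anticoagulants of the vessel wall, 9 of 11 lie right of 0 in TAC against sham and 9 of 11 left of 0 in LD against TAC.

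How the levels varied together was examined over the 9 libraries, in 28 pairs of the 8 tested genes and in 8 relations to the first principal component. C3 and Serping1 were the closest pair (Pearson's r = 0.854, Spearman's rho = 0.85, exact permutation p = 0.00548 and 0.00607, adjusted over 28 pairs 0.134 and 0.170). Without TAC 2 and LD 2, the 2 libraries farthest from the C3 median, r was 0.686. Between deviations from the group means it was 0.805. Thbd and Procr gave r = 0.77 and rho = 0.733 (exact permutation p = 0.0166 and 0.0311, adjusted 0.134 and 0.206). Without TAC 2 and TAC 3, the 2 libraries farthest from the Thbd median, r was 0.419. Leaving these out also narrows the range of Thbd, which by itself can lower r. Between deviations from the group means, r was 0.612. No pair passed adjustment.

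Against the first principal component, to which each gene itself contributes a little, Tfpi gave r = -0.788 and rho = -0.95 (exact permutation p = 0.00086 and 0.000353, adjusted over 8 genes 0.00688 and 0.00282), and r = -0.724 without TAC 3 and LD 3. Thbd (r = -0.791, rho = -0.733) and F3 (r = -0.771, rho = -0.733) had adjusted exact permutation p-values of 0.0240 and 0.0301 for r and 0.0622 for each rho, and r of -0.494 and -0.59 without those 2 libraries. Serping1 ran the other way (r = 0.679, rho = 0.817, adjusted exact permutation p = 0.0569 and 0.0431), with r = 0.791 without them. For Procr, r went from -0.635 to 0.041 when they were left out. These relations are over all 9 libraries and hold group differences as well as the spread within groups. The axis was drawn from these same libraries to hold as much variance of all tested genes as possible. The share of all genes with such p-values was not computed, so the p-values do not set these genes apart from others. The part of this axis in the group differences was not tested.

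**Figure D5:**
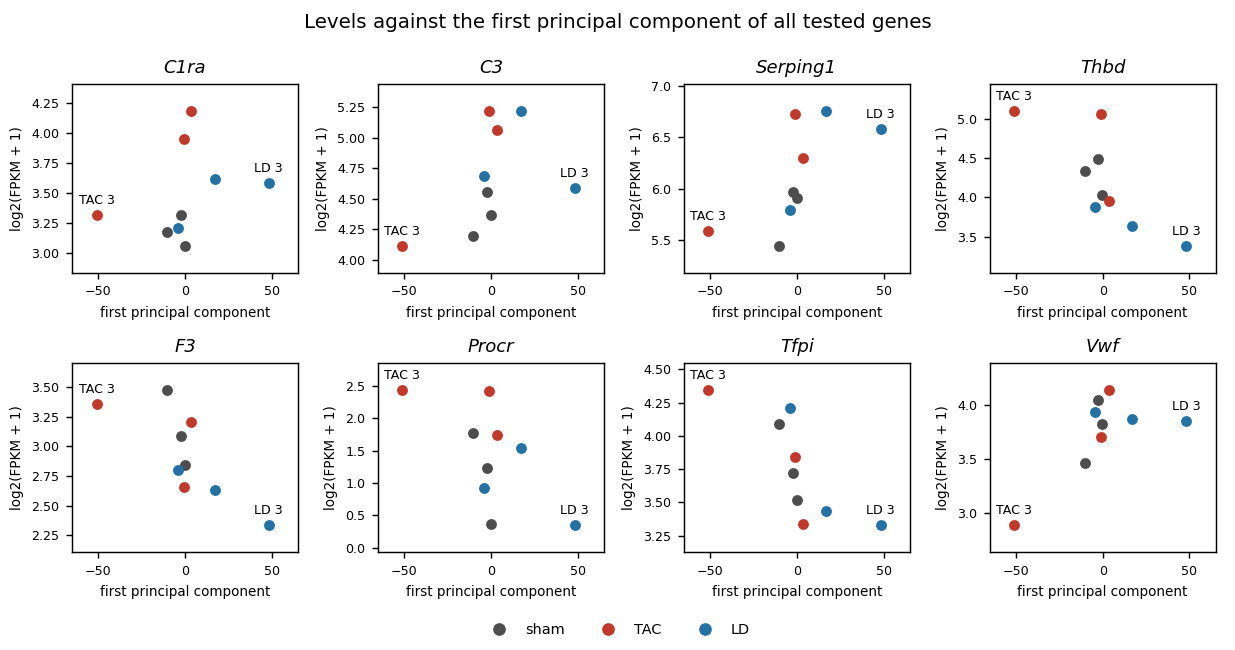
Log2(FPKM + 1) (vertical axes) against the position of each library on the first principal component of all tested genes (horizontal axes, no unit), with sham in grey, TAC in red and LD in blue. TAC 3 at -51.0 and LD 3 at 48.3 are the ends of the axis, where Thbd, F3 and Procr are high and low in turn.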

How the data were processed

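Poly-A RNA of whole heart was sequenced in 9 libraries, 3 biological repeats per group per the labels' protocols. The authors deposited FPKM values of gene symbols. Per the submitters' processing notes, the build was GRCm38, and the tools named, without their roles, were HISAT2 2.1.0, Cufflinks 2.2.1, HTSeq 0.7.2, DESeq, CASAVA 1.8 and fastp 0.20.0. The annotation behind the FPKM is not given in the sources used here, and neither is a strand setting.

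The FPKM of a gene is a whole multiple of what 1 fragment is worth, so gene lengths and library totals were recovered: all 16262 genes above 0 came out whole within 0.001. Such depth limits cover counting error only. For a length of 1 kilobase, 3 fragments are worth 0.166 to 0.404 FPKM, by library.

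Genes with FPKM of at least 1 in at least 3 libraries were tested on log2(FPKM + 1), which understates differences of low genes, with limma 3.58.1 in R 4.3.3: all 3 groups in 1 fit, 6 residual degrees of freedom, a trended empirical Bayes step, two-sided, Benjamini-Hochberg adjusted p under 0.05 over all genes. The fit was tested on simulated data. Coordinates and shared stretches come from GENCODE M21, in which no exon of the 9 genes overlapped that of another gene. Beside the 9 genes, those named are the up to 3 of smallest unadjusted p per list and comparison with a mean FPKM of at least 1, a fixed set from the same lists, and the 2 most alike in pattern (Pearson's r of log2 values) with a mean FPKM of at least 5; some of these are not reported here. The genes and lists were chosen with earlier results of these data known. Alternatives changed the pseudocount, filter, scaling, fit and weights, used voom on recovered fragments, added a replicate block, or left out libraries. Leaving out TAC 3 with LD 3, and rescaling C4b, were chosen after seeing the data.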

Additional observations from a re-analysis of the deposited data

How the results depend on the processing

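Of 591 alternative values of the 9 genes, 559 kept their direction and 32 reversed, and none passed an adjusted p of 0.05. Thbd in LD against TAC kept its direction in 22 of 22 alternatives (unadjusted p under 0.05 in 21), Procr in 21 of 21 (20), and in TAC against sham C1ra in 22 of 22 (16) and Procr in 21 of 21 (17). Genes of any kind with an adjusted p under 0.05, 0 as reported, numbered 2 in TAC against sham, 3 in LD against sham and 2 by the F test with FPKM of at least 5, and 10 in LD against sham with only those 2 groups in the fit. With sample quality weights they numbered 9, 135 and 44, and with voom 4, 3 and 3. Leaving out libraries gave 0 to 13, 0 to 8 and 0 to 8, highest without TAC 1. LD against TAC stayed at 0 throughout. Of the 9 genes, those with an unadjusted p under 0.05 in TAC against sham numbered 1 with FPKM of at least 5 or voom. The shares of all genes were 4.94% and 5.24%, against 5.43% as reported. With FPKM of at least 5, Procr was not among the 7 of the 9 genes that were tested. With libraries left out, 0 to 4 of the 9 were under 0.05 (0 without sham 3 or TAC 2), beside 3.35% to 10.1% of all genes. In LD against TAC, 1 of the 9 was under 0.05 with FPKM of at least 5, where Procr was again not tested (9.14% of all genes). With libraries left out, 1 to 3 of the 9 were, beside 4.43% to 15.5% of all genes (8.82% as reported). In LD against sham, 0 as reported, such genes numbered 1 with columns rescaled to equal sums and 2 with only those 2 groups. They numbered 4 with weights and 1 with voom. The shares of all genes were 5.28%, 7.34%, 19.4% and 8.38% in turn, against 5.11% as reported. With libraries left out, 0 to 2 of the 9 were under 0.05, beside 2.98% to 9.31% of all genes. Replicate numbers did not pair the samples: deviations of same-numbered libraries correlated between -0.24 and 0.15, above 0.1 in 1 of 9 pairs, and 2 of 18 library comparisons were closest to their own number. With the number as a replicate block, 0 genes passed in each comparison. In TAC against sham, 1 of the 9 genes instead of 2 then had an unadjusted p under 0.05 (4.78% of all genes). Reversed were C3 in LD against TAC (-0.070 with equal sums), Procr in LD against sham (0.16 with weights) and C4b in LD against sham (0.20 with voom). Leaving out libraries also reversed values close to 0. In TAC against sham they ranged from -0.21 to 0.15 (F3), -0.18 to 0.32 (Tfpi), -0.48 to 0.14 (Vwf) and -0.22 to 0.085 (C4b). In LD against TAC they ranged from -0.31 to 0.24 (C3), -0.24 to 0.47 (Serping1), -0.46 to 0.23 (Tfpi), -0.037 to 0.59 (Vwf) and -0.01 to 0.10 (C4b). In LD against sham they ranged from -0.57 to 0.13 (Procr), -0.39 to 0.047 (Tfpi), -0.051 to 0.24 (Vwf) and -0.18 to 0.13 (C4b). The cause was not tested. Where 1 library was left out, 2 remained in its group. Depth limits Procr most, at 8 fragments in sham 3 and in LD 3.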
